A study of Erythranthe pardalis x Erythranthe guttata and Erythranthe pardalis with 20 samples.

Results

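The genes described here are 4 homologues of seed maturation regulators in *Mimulus* (monkeyflower) seeds, chosen by name and identifier: the FUS3 homologue Migut.F00019, the ABI3 homologue Migut.D00511, and the L1L homologues Migut.M01289 and Migut.M01443. They are 4 of the 28140 genes counted, and all 4 were among the 20242 genes tested. RNA was sequenced from unfertilized ovules of the inbred *M. pardalis* line SEC39 (0 days after pollination, DAP; 5 libraries) and from whole seeds that SEC39 mothers set with pollen of the inbred *M. guttatus* line CSS4, collected at 2 DAP (4 libraries), 4 DAP (3), 6 DAP (4) and 8 DAP (4). No seeds of either parental line and no reciprocal cross were analysed, so the step from 0 to 2 DAP cannot be told apart from the arrival of the CSS4 genome. The study's methods count the seeds of 1 maternal plant as 1 replicate and give 3 ovule libraries as pools of plants, whereas the sample records speak of fruits pooled from different plants. By the study's methods maternal plants 1 to 4 bore all seeds of 2 to 8 DAP and also gave ovules. The same 5 pollen donors served every seed age. By this account libraries of different ages shared parents, which the main model did not enter. The p-values below cover only the spread between these libraries, the more so if pools shared plants within an age.

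In *Arabidopsis*, seed maturation is governed by a small network of transcription factors. ABI3 and FUS3 are proteins with a B3 DNA-binding domain that act on genes of storage proteins, oil bodies and desiccation tolerance, ABI3 as part of the response to abscisic acid. L1L (LEC1-LIKE) is a B subunit of the NF-Y complex, close to LEC1, and works with the B3 factors during embryo development. These roles are known from *Arabidopsis*; the *Mimulus* genes carry the names of their most similar homologues. Levels are given as normalized CPM, that is, counts per 1000000 counts of the library (CPM) after TMM scaling, which corrects for differences in library composition. Gene lengths were not used, so levels are compared within a gene and not between genes.

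All 4 regulators changed with age over the whole course, with some steps shared and others not. For FUS3 no single step between neighbouring ages passed the test. The L1L homologue Migut.M01289 rose from 0 to 2 DAP and again at 6 DAP, where it had its highest mean. Migut.M01443 rose at the same ages and once more, about 13.1-fold, from 6 to 8 DAP. ABI3 was without a count until 4 DAP and rose at 6 and 8 DAP, and FUS3 had its highest levels in libraries of 8 DAP, which differed 13.8-fold among themselves. In the joint test of the 4 transitions between neighbouring ages (edgeR quasi-likelihood F test with Benjamini-Hochberg adjustment over all genes tested, threshold 0.01), the adjusted p was 1.21e-06 for Migut.M01289, 4.26e-11 for Migut.M01443, 1.58e-09 for ABI3 and 0.000589 for FUS3. The same test called 50.2% of all genes tested, so passing it does not set these 4 apart, and the study had already named the genes from these libraries.

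**Figure D1:**
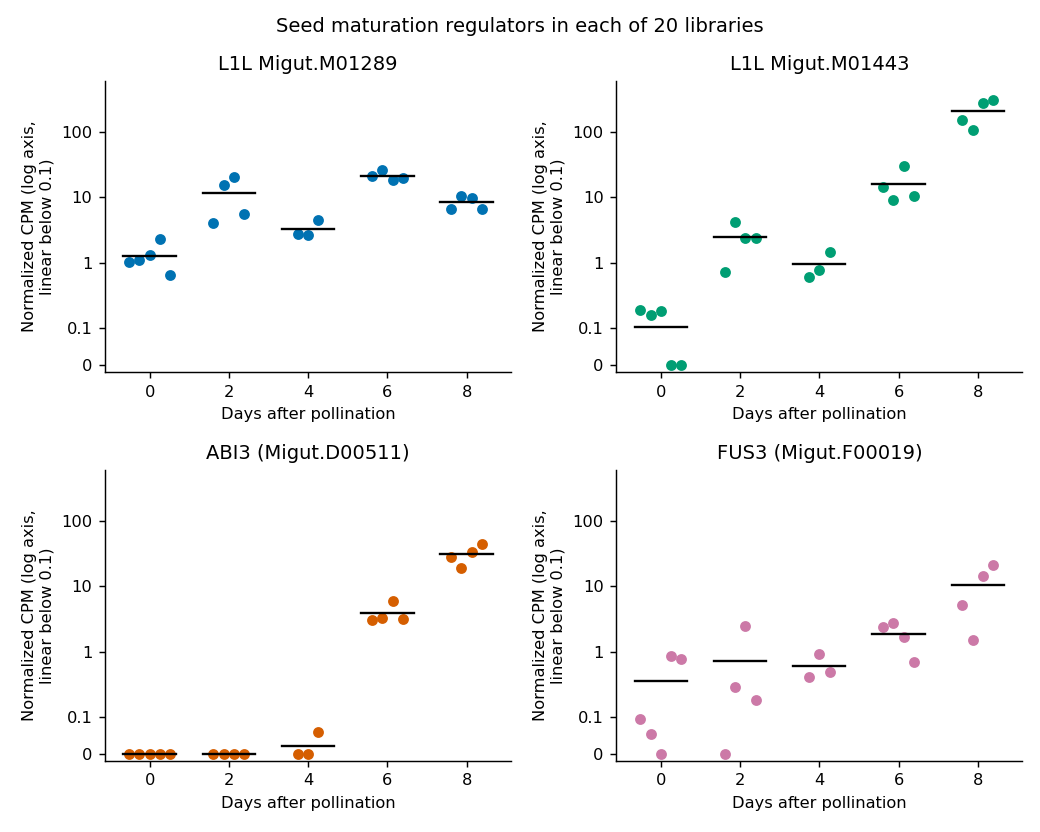
Normalized CPM of the 4 regulators (vertical axis, logarithmic, linear below 0.1) in each of the 20 libraries (points, in order of replicate number within an age) against days after pollination, with the mean of each age (black line). ABI3 lies at 0 in every library of 0 and 2 DAP, Migut.M01289 has its highest mean at 6 DAP, with libraries that overlap those of 2 DAP, and the 4 FUS3 values at 8 DAP spread from 1.51 to 20.8.

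Total counts per library ran from 7588155 to 16529554 (median 13118699), and 3 counts, taken as the upper limit that a count of 0 allows, came to between 0.155 and 0.332 normalized CPM. Intervals and limits given here cover counting error only. Seeds were shaken out of cut fruits by hand, and the study's methods allow for some placental tissue in the libraries. Of the endosperm marker list (homologues of ZOU and AGL62, 4 genes), the summed level was 0 to 2.62 normalized CPM in ovules and 7.08 to 27.9 in seeds. Its members went different ways in seeds. From 2 to 6 DAP the AGL62 homologues fell from means of 7.57 and 9.88 normalized CPM to 0.143 and 0.322. The ZOU homologues rose from 1.44 and 0 to 9.07 and 1.73. As these are whole seeds, a larger share of cells that express a gene cannot be told apart from more RNA per cell. The authors kept uniquely mapped reads only, so that reads shared by similar gene copies are not counted. How alike the L1L homologues are in sequence was not examined. The ovule replicates 3 to 5 and the 2 DAP replicates 2 to 4 carry the library numbers 15 to 20 and the other libraries the numbers 1 to 14, which are the only series of libraries that the names show.

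The L1L homologue Migut.M01289 was present before fertilization. Its normalized CPM in ovules was 1.04, 1.11, 1.34, 2.29 and 0.664 in replicates 1 to 5. At 2 DAP it was 4.04, 15.5, 20.9 and 5.59 in replicates 1 to 4, so that every seed library was above every ovule library. The rise was 3.13 ± 0.43 on the log2 scale (SE; adjusted p = 1.34e-05, edgeR quasi-likelihood test), at a step at which 11.8% of all genes rose and 9.13% had no overlap in this direction. At 4 DAP the 3 libraries had 2.73, 2.65 and 4.54 normalized CPM, which overlapped with the lower libraries of 2 DAP. The difference from 2 to 4 DAP was -1.79 ± 0.47 on the log2 scale and did not pass the threshold (adjusted p = 0.0413, edgeR quasi-likelihood test), while it passed without 2 DAP replicate 1 (-2.08, adjusted p = 0.00379). When the series of library numbers entered the model, the difference was -0.89 (adjusted p = 0.555, edgeR quasi-likelihood test). At this step 0.178% of all genes fell.

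At 6 DAP Migut.M01289 reached 21.6, 26.1, 18.5 and 20.0 normalized CPM in replicates 1 to 4. All were above the libraries of 4 DAP, with a rise of 2.70 ± 0.49 on the log2 scale (adjusted p = 0.000756, edgeR quasi-likelihood test) at a step at which 5.22% of all genes rose and 22.9% had no overlap in this direction. The libraries of 6 DAP overlapped with those of 2 DAP, from which they differed by 0.91 ± 0.41 on the log2 scale (adjusted p = 0.113, edgeR quasi-likelihood test). At 8 DAP the values were 6.66, 10.4, 9.97 and 6.69. Every library of 8 DAP was thus below every library of 6 DAP, as was the case for 25.3% of all genes tested. The difference of -1.36 ± 0.42 on the log2 scale did not pass the threshold in the model of all 20 libraries (adjusted p = 0.0197, edgeR quasi-likelihood test), but it passed when only the libraries of 6 and 8 DAP were fitted (-1.35, adjusted p = 0.000155) and without 2 DAP replicate 1 (-1.36, adjusted p = 0.00686). Among all genes 6.77% fell at this step. The other L1L homologue moved the opposite way at this step.

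Migut.M01443, the other L1L homologue, was close to the counting limit in ovules, with 2, 3, 3, 0 and 0 counts in replicates 1 to 5. At 2 DAP it had 14, 44, 28 and 27 counts, or 0.726, 4.22, 2.43 and 2.43 normalized CPM. Every seed library was above every ovule library, with a rise of 4.25 ± 0.68 on the log2 scale (adjusted p = 8.63e-05, edgeR quasi-likelihood test). The ratio of the pooled counts, each divided by the summed library totals after TMM scaling, was 18.2 (95% counting interval 8.95 to 43.3). Among all genes 11.8% rose at this step and 9.13% had no overlap in this direction. At 4 DAP it stood at 0.619, 0.794 and 1.45 normalized CPM, within or below the range of 2 DAP (log2 difference -1.32 ± 0.59, adjusted p = 0.188, edgeR quasi-likelihood test).

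At 6 DAP Migut.M01443 had 14.5, 8.99, 30.6 and 10.4 normalized CPM in replicates 1 to 4, and at 8 DAP 150.0, 108.0, 282.0 and 305.0. No library of 8 DAP came near those of 6 DAP, and 23.2% of all genes tested had no overlap in this direction. The highest library of 6 DAP was replicate 3. The rise from 4 to 6 DAP was 4.07 ± 0.61 on the log2 scale (adjusted p = 0.00013), and that from 6 to 8 DAP was 3.71 ± 0.49 (adjusted p = 2.75e-05, both by the edgeR quasi-likelihood test). At these steps 5.22% and 7.52% of all genes rose. Over the whole course the ratio between 0 and 8 DAP, pooled and scaled in the same way, was 1736 (95% counting interval 881 to 4023).

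ABI3 (Migut.D00511) had no count in any of the 9 libraries of 0 and 2 DAP and a single count at 4 DAP, in replicate 3. At 6 DAP it had 37, 46, 67 and 36 counts in replicates 1 to 4, or 3.04, 3.28, 5.9 and 3.14 normalized CPM. Replicate 3 stood above the other 3 libraries, whose values lay close together. At 8 DAP it had 306, 212, 315 and 429 counts, or 27.9, 18.8, 33.4 and 43.5 normalized CPM, and no library overlapped with 6 DAP, as for 23.2% of all genes tested. The level was at least 16.1-fold higher at 6 DAP and at least 129-fold higher at 8 DAP than 3 counts per ovule library would give. The ratio of 6 to 4 DAP, pooled and scaled as for Migut.M01443, was 194. Its counting interval of 34.3 to 7684 rests on the 1 count at 4 DAP. Both rises passed the edgeR quasi-likelihood test, from 4 to 6 DAP with an adjusted p of 3.30e-05 and from 6 to 8 DAP with a log2 change of 3.01 ± 0.39 and an adjusted p of 0.000126. Both were called with each of the 20 libraries left out in turn. At these steps 5.22% and 7.52% of all genes rose.

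FUS3 (Migut.F00019) was read at a low level in some early libraries. In ovules it had 1, 1, 0, 11 and 7 counts in replicates 1 to 5, and at 2 DAP 0, 3, 28 and 2 counts in replicates 1 to 4. Its level in 2 DAP replicate 3, 2.43 normalized CPM, was within the range of 6 DAP. In the same library the summed level of 8 oil body proteins was 12 normalized CPM, against 0.992 to 1.44 in the other libraries of 2 DAP, and that of the seed coat list (homologues of TT10 and TT4) was 135 against 15.2, 23.3 and 45.4 in the others. Of the oil body sum in replicate 3, 9.1 normalized CPM came from 1 gene, the OLEO1 homologue Migut.A01025. The seed coat sum was almost all TT10 (Migut.C00171), which reached 134 normalized CPM at 2 DAP, against at most 0.693 for TT4 (Migut.G00630). TT10 and TT4 went opposite ways from 0 to 2 DAP (log2 change 2.18 ± 0.46 and -4.01 ± 0.97). The part of these sums in the FUS3 reading was not tested. The 3 libraries with the higher early FUS3 counts carry library numbers from 15 to 20, as do 3 others without them.

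At 4 DAP FUS3 had 0.413, 0.927 and 0.484 normalized CPM, and at 6 DAP 2.38, 2.71, 1.67 and 0.697 in replicates 1 to 4. At 8 DAP it had 5.11, 1.51, 14.5 and 20.8. Replicates 3 and 4 were far above 6 DAP and replicate 1 moderately so, while replicate 2 lay inside the range of 6 DAP. No transition between neighbouring ages passed the threshold for FUS3: the log2 difference was 1.62 ± 1.11 from 4 to 6 DAP (adjusted p = 0.443) and 2.48 ± 0.97 from 6 to 8 DAP (adjusted p = 0.0584, both by the edgeR quasi-likelihood test). With each library left out in turn the step from 6 to 8 DAP missed it too (adjusted p from 0.0268 to 0.187). Over longer spans FUS3 rose, by 4.95 ± 1.04 on the log2 scale from 0 to 8 DAP (adjusted p = 0.000579) and by 3.88 ± 1.06 from 2 to 8 DAP (adjusted p = 0.00785), with 4 to 8 DAP just outside the threshold (4.10 ± 1.19, adjusted p = 0.0106; edgeR quasi-likelihood test). Over these spans 18.1%, 9.90% and 12.3% of all genes rose. The libraries of 2 and 8 DAP overlapped, since 2 DAP replicate 3 (2.43) was above 8 DAP replicate 2 (1.51). With each of the 20 libraries left out in turn, the rise from 0 to 8 DAP was called every time, whereas that from 2 to 8 DAP was lost in 11 cases (adjusted p from 0.000587 to 0.033) and that from 4 to 8 DAP was gained in 7 (adjusted p from 0.00343 to 0.0496). The rise from 2 to 8 DAP was also lost with the replicate number as a block (3.87, adjusted p = 0.0111) and with these 2 ages only (3.93, adjusted p = 0.0279, edgeR quasi-likelihood test). That from 4 to 8 DAP was called with a block by maternal plant (4.2, adjusted p = 0.00466) or library name (4.00, adjusted p = 0.00321, edgeR quasi-likelihood test). By the same test it was called with the library series in the model (adjusted p = 0.00237) and with its 2 ages only (adjusted p = 0.0059). The edgeR likelihood ratio test (adjusted p = 0.00494) and DESeq2 (adjusted p = 0.000704) called it too. It stayed uncalled with DESeq2 size factors, on total counts, without the filter and with the replicate number as a block.

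**Figure D2:**
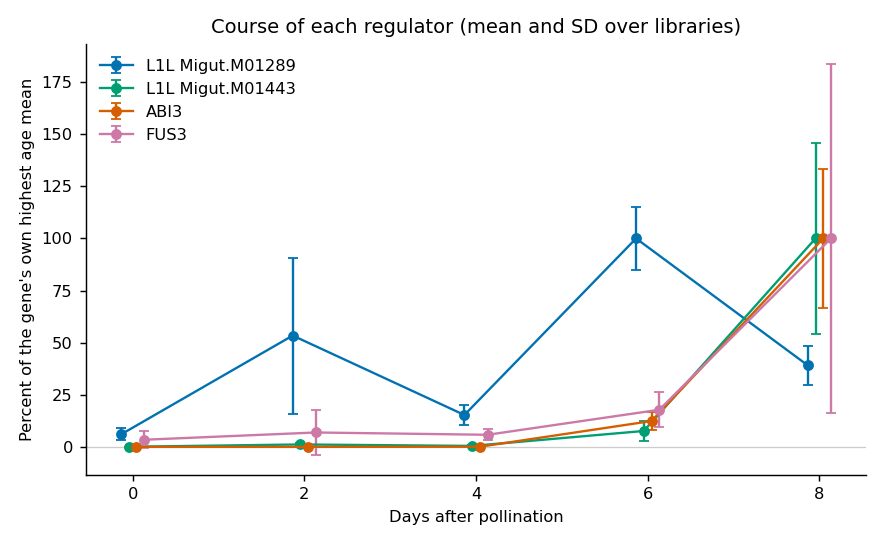
Mean level of each regulator as a percent of its own highest age mean (vertical axis) against days after pollination, with the SD over the libraries of that age (3 to 5). At 6 DAP Migut.M01289 was at its highest, whereas FUS3, ABI3 and Migut.M01443 stood at 17.8%, 12.4% and 7.63% of their means at 8 DAP.

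The order of onset depended on how onset was read, except that Migut.M01289 was first, or level with FUS3, by every rule. By the first age at which any library held more than 3 counts, Migut.M01289 and FUS3 were on at 0 DAP, Migut.M01443 at 2 DAP and ABI3 at 6 DAP. By the first age at which every library had at least 1 normalized CPM, the order was Migut.M01289 at 2 DAP, Migut.M01443 and ABI3 at 6 DAP and FUS3 at 8 DAP. A minimum of 1 normalized CPM is easier to reach for a long transcript, so that this order between genes also holds their lengths. At a minimum of 0.5 normalized CPM the ages were 0, 2, 6 and 6 DAP for Migut.M01289, Migut.M01443, ABI3 and FUS3, and at a minimum of 2 they were 2, 6 and 6 DAP for the first 3, with FUS3 at no age.

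A rule free of length reads each gene against its own highest age. The mean first reached 10% of the highest age mean at 2 DAP for Migut.M01289, at 6 DAP for ABI3 and FUS3, and at 8 DAP for Migut.M01443. On total counts without TMM scaling Migut.M01443 stood at 10.1% at 6 DAP and so was level with ABI3 and FUS3. The 6 DAP libraries, as a percent of the gene's 8 DAP mean, were at 22.7, 25.9, 16 and 6.65 for FUS3, at 9.83, 10.6, 19.1 and 10.2 for ABI3, and at 6.88, 4.25, 14.5 and 4.91 for Migut.M01443. FUS3, ABI3 and Migut.M01443 overlapped in this measure, and their order at 6 DAP did not stand beyond the spread of the libraries. Migut.M01289 was apart from them, at 220 to 310%.

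Ratios between regulators within a library remove gene length when 6 and 8 DAP are compared. The level of Migut.M01289 relative to Migut.M01443 fell by 5.03 on the log2 scale, a 32.7-fold shift between the L1L homologues, from 0.56 ± 0.93 (SD, n = 4) at 6 DAP to -4.47 ± 0.87 (n = 4) at 8 DAP. ABI3 gained 4.16 and FUS3 gained 3.13 on Migut.M01289. Against Migut.M01443, ABI3 lost 0.87 and FUS3 lost 1.90 on the log2 scale. In each of these 5 pairs the libraries of 6 and 8 DAP did not overlap. For FUS3 over Migut.M01443 the 2 ages all but touched, with 6 DAP replicate 3 and 8 DAP replicate 4 both at -3.84. Such a separation gives p = 0.0286, the smallest that a two-sided exact permutation test of 4 against 4 allows. The adjusted p over the 6 pairs was 0.0343 by the same test. The threshold for these ratios was 0.05, as the test cannot reach 0.01. The pairs share members, and single genes whose libraries do not overlap between these ages are common (23.2% higher and 25.3% lower at 8 DAP).

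The pair of B3 factors was the exception. The log2 ratio of FUS3 over ABI3 was -0.92 ± 0.76 at 6 DAP and -1.96 ± 1.05 at 8 DAP (SD, n = 4 each), with overlapping libraries and p = 0.171 by the two-sided exact permutation test, so no difference between FUS3 and ABI3 in the rise from 6 to 8 DAP was shown. The call for FUS3 over Migut.M01443 was lost with a pseudocount of 0.1 in place of 0.5 (-1.75, adjusted p = 0.0686, exact permutation test). With 1 of the 8 libraries left out, the adjusted p of these 5 pairs lay between 0.0429 and 0.0686 while every direction was kept. It missed 0.05 in 8 of 8 cases for FUS3 over Migut.M01289 and in 6 of 8 for each of the other 4 pairs. Leaving out a library also cuts the number of splits that the exact test has. A miss of 0.05 can thus come from the test alone and does not show the weight of that library.

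**Figure D3:**
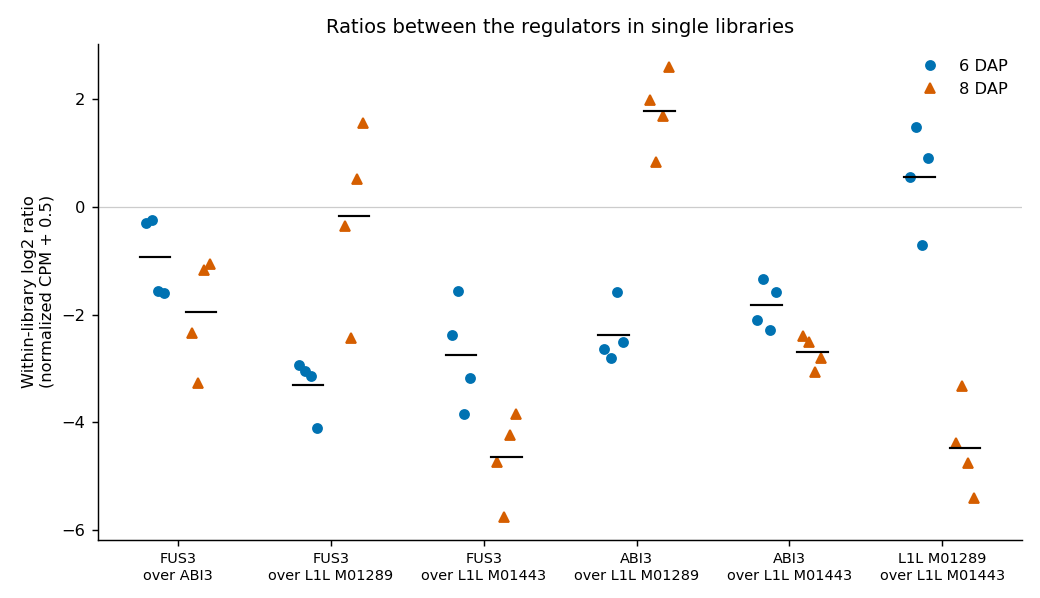
Log2 ratio of normalized CPM (with 0.5 added) between pairs of regulators within single libraries (vertical axis), for the 4 libraries of 6 DAP (circles) and the 4 of 8 DAP (triangles), with the mean of each age (black line). In all pairs but FUS3 over ABI3 the 2 ages do not overlap, though those of FUS3 over Migut.M01443 all but touch at -3.84. The ratio of Migut.M01289 over Migut.M01443 shifts furthest, by -5.03.

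By the ratio of the highest to the lowest library, the libraries of 6 and of 8 DAP agreed most closely for Migut.M01289 and least for FUS3. At 8 DAP the highest library was 1.56 times the lowest for Migut.M01289, 2.31 times for ABI3, 2.81 times for Migut.M01443 and 13.8 times for FUS3. At 6 DAP the same ratios were 1.41, 1.94, 3.4 and 3.89. By the coefficient of variation Migut.M01443 came last at 6 DAP, at 61.5% against 47.8% for FUS3. The variance between libraries was larger than counting error alone gives for each regulator at both ages, from 5.07 times for FUS3 at 6 DAP to 475 times for Migut.M01443 at 8 DAP. Counting error was thus the smaller part of the spread.

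Some of this spread was uncommon among genes of like level that held a minimum count in every library of the age. Genes that fell near 0 in a library were left out of this comparison, so the shares may overstate how uncommon it was. The SD of the log2 level of FUS3 at 8 DAP was 1.70, and 99.6% of 6144 genes of like level had an equal or smaller one (their median was 0.33). At 6 DAP it was 0.88, with 92.7% of like genes at or below it. For Migut.M01443 the SD was 0.72 at 8 DAP and 0.79 at 6 DAP, with 97.1% and 98.6% of like genes at or below it. For ABI3 the SD was 0.51 at 8 DAP and 0.45 at 6 DAP, with 92.0% and 72.8% at or below it. Migut.M01289 lay near the middle, at 49.2% and 59.4%.

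The 8 DAP libraries were ranked alike by 3 of the regulators. FUS3, ABI3 and Migut.M01443 were each highest in replicate 4, then replicate 3, replicate 1 and replicate 2. Migut.M01289 had another order, with replicate 2 highest and replicate 1 lowest. Across genes in general, replicates 3 and 4 were also the closest pair of 8 DAP libraries, and replicate 2 was furthest from both. The mean chi-square of count differences per gene was 5.5 between replicates 3 and 4, against 59 and 60.6 from replicate 2. How many other genes share the order was not counted. The summed level of 8 oil body proteins followed the first order (2985, 845, 6147 and 6293 normalized CPM in replicates 1 to 4). Summed storage proteins (13 genes) stood at 9127, 819, 23001 and 22282 and summed desiccation proteins (7 genes) at 238, 30.6, 532 and 528, so that replicate 2 was lowest and replicate 1 next in these too. In replicate 2 FUS3 was at 14.4% of its 8 DAP mean, ABI3 at 60.8% and Migut.M01443 at 51.3%, against 5.93% for storage proteins. Without replicate 2 the step from 6 to 8 DAP was 2.84 on the log2 scale for FUS3 (adjusted p = 0.0346), 3.19 for ABI3 (adjusted p = 0.00013) and 3.93 for Migut.M01443 (adjusted p = 2.02e-05, edgeR quasi-likelihood test), so no call changed for these 3. The endosperm list was at 18.2 to 27.2 normalized CPM at 8 DAP and 8.98 to 12.6 at 6 DAP. At both ages this sum was mostly of the ZOU homologues (means of 9.07 and 1.73 at 6 DAP, 11.6 and 8.41 at 8 DAP). At 8 and 6 DAP the seed coat list was at 458 to 598 and 415 to 904, almost all from the TT10 homologue. TT4 had means of 0.293 and 0.183 at these ages. The part of either list in the levels of the regulators was not tested.

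**Figure D4:**
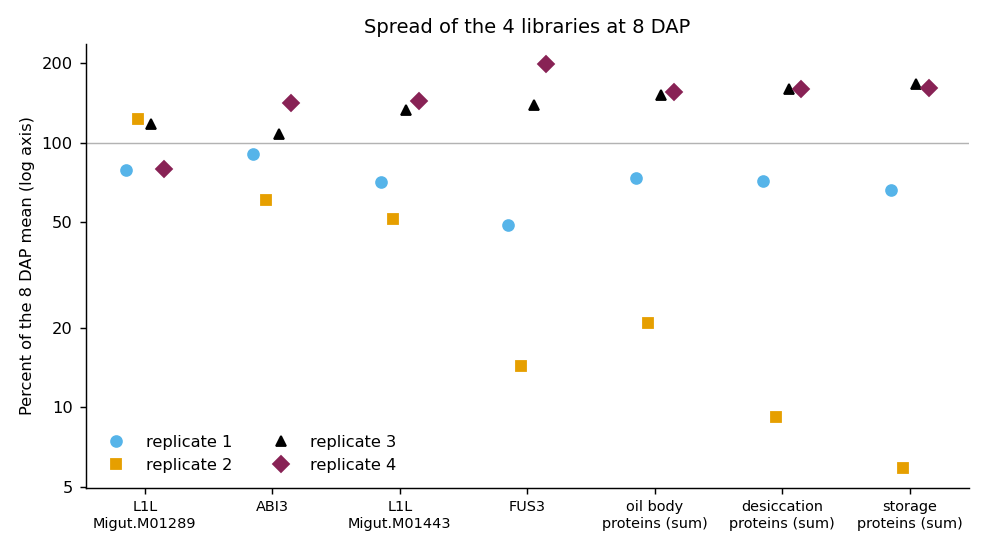
Level in each of the 4 libraries at 8 DAP (symbols) as a percent of the 8 DAP mean (vertical axis, logarithmic), for the 4 regulators and for the summed levels of oil body, desiccation and storage proteins. Replicate 2 is lowest in every column except that of Migut.M01289, where it is highest, and the columns reach from 1.56-fold (Migut.M01289) to 28.1-fold (storage proteins).

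At 6 DAP the regulators split. ABI3 and Migut.M01443 were highest in replicate 3, as were the summed storage proteins (24.4 normalized CPM, against 0.959 to 2.13 in the other libraries), oil body proteins (92.4 against 25 to 44.5) and desiccation proteins (7.4 against 2.5 to 3.75). FUS3 and Migut.M01289 were highest in replicate 2. Of the storage protein sum in replicate 3, 9.16 and 9.25 normalized CPM came from 2 genes, Migut.M01805 (SESA5) and Migut.M01806 (SESA3). The same 2 genes had the highest means of this list at 8 DAP, 3684 and 4583. By replicate number, which the study's methods tie to the maternal plant at these ages, FUS3 had the order 2, 1, 3, 4 at 6 DAP and the reverse at 8 DAP. FUS3 was 2.15-fold, 8.69-fold and 29.8-fold higher at 8 than at 6 DAP in replicates 1, 3 and 4, and 1.8-fold lower in replicate 2. ABI3 was higher in all 4 replicates, by 5.67-fold to 13.9-fold, as was Migut.M01443, by 9.23-fold to 29.4-fold, and Migut.M01289 was lower in all 4, by 1.85-fold to 3.24-fold.

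Of 10 further homologues of maturation regulators, 7 passed the filter on low counts and 3 of these rose from 6 to 8 DAP (median log2 change -0.91 over the 7, against -0.07 over all genes tested), 2 from 4 to 6 DAP and 2 from 0 to 2 DAP, where 1 fell. Over all genes tested 7.52%, 5.22% and 11.8% rose at these steps and 6.46% fell at the last. Of the 10 homologues, 6 were annotated only in tables that the study drew from these libraries, so these counts are not independent evidence. WRI1 (Migut.B01163), which turns on fatty acid synthesis in *Arabidopsis*, rose at the same 3 steps as Migut.M01443, with means of 0.129 ± 0.212, 4.04 ± 2.78, 2.41 ± 0.893, 26.9 ± 9.29 and 164 ± 43.9 normalized CPM at 0 to 8 DAP (SD; adjusted p = 0.000337 from 6 to 8 DAP, edgeR quasi-likelihood test). SOM (Migut.M00160), a regulator of light-dependent germination in *Arabidopsis*, rose from 2.93 ± 0.989 at 6 DAP to 67.7 ± 38.1 at 8 DAP (adjusted p = 8.13e-06, edgeR quasi-likelihood test). AREB3 (Migut.K00199), a bZIP factor of abscisic acid signalling, rose from 13.5 ± 1.74 to 28.5 ± 5.73 (adjusted p = 0.000602, edgeR quasi-likelihood test).

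The remaining L1L homologue and the LEC1 homologues had their lowest seed levels at 8 DAP. Migut.E01594 (L1L) had no count in ovules and a mean of 2.49 ± 1.9 normalized CPM at 2 DAP, a rise with an adjusted p of 8.54e-05 by the edgeR quasi-likelihood test. It stood at 1.92 ± 0.264 at 4 DAP, 2.7 ± 0.894 at 6 DAP and 0.313 ± 0.388 at 8 DAP, and the last step did not pass (adjusted p = 0.0136, edgeR quasi-likelihood test), but it did so without 8 DAP replicate 2 (-4 on the log2 scale, adjusted p = 0.00709), where no other regulator of this list changed its call. The LEC1 homologues Migut.A00972 and Migut.K01122 held 87 and 65 counts in all 20 libraries together and were not tested. Migut.A00972 had 6, 29, 18, 30 and 4 of these counts at 0 to 8 DAP, and Migut.K01122 had 0, 25, 31, 9 and 0. DOG1, which controls seed dormancy in *Arabidopsis*, had the homologue Migut.H01438, which fell from 14 ± 3.09 in ovules to 2.87 ± 1.7 at 2 DAP (adjusted p = 0.00208, edgeR quasi-likelihood test; 6.46% of all genes fell) and had no count at 8 DAP, while Migut.A00056 (70 counts) was not tested. ABF1 (Migut.B00355), another bZIP factor of abscisic acid signalling, and PKL (Migut.A00006), a chromatin remodeller that represses embryo genes in *Arabidopsis* seedlings, had log2 differences of -1.04 ± 0.42 and -0.91 ± 0.40 from 6 to 8 DAP that did not pass (adjusted p = 0.0669 and 0.0867, edgeR quasi-likelihood test).

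Genes of the kinds that ABI3 and FUS3 act on in *Arabidopsis* were called mostly from 6 to 8 DAP. From 4 to 6 DAP, when ABI3 and both L1L homologues rose, 0 of 13 storage proteins, 4 of 7 tested oil body proteins and 0 of 7 desiccation proteins rose in the edgeR quasi-likelihood test, against 5.22% of all genes. From 6 to 8 DAP all 13 storage proteins, all 7 tested oil body proteins and all 7 desiccation proteins rose, with median log2 changes of 10.95, 6.42 and 7.40, against 7.52% of all genes and a median of -0.07. The same counts were reached without 8 DAP replicate 2. All 13 storage proteins, all 7 desiccation proteins and 7 of the 8 oil body proteins were annotated only in tables that the study drew from these libraries. Neither their direction nor the step at which they were called is thus independent evidence.

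By the named members of these lists, the albumin homologue Migut.M01806 (SESA3) went from 2.35 ± 4.6 to 4583 ± 3505 normalized CPM between 6 and 8 DAP and the oleosin homologue Migut.F00529 (OLEO1), a coat protein of oil bodies, from 13.5 ± 15.6 to 1859 ± 1151 (SD, n = 4 each). The oleosin homologue was 1 of the 4 that rose already from 4 to 6 DAP (log2 change 8.86 ± 1.40, adjusted p = 0.000219, edgeR quasi-likelihood test). The cruciferin homologue Migut.D00425 (CRU1) had the largest log2 change of the storage proteins, 12.71 ± 1.17, and Migut.G00511 (CRU1) the smallest, 8.04 ± 0.76. Among the desiccation proteins Migut.I00802, of the LEA family, went from 0.543 ± 0.27 to 206 ± 166.

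Some of the other NF-Y subunits and hormone genes passed the test from 6 to 8 DAP, when 7.52% of all genes rose and 6.77% fell. Of the 6 NF-Y subunits 5, of the 7 abscisic acid genes 5 and all 5 gibberellin genes were annotated only in tables drawn from these libraries. Their counts are thus not independent evidence either. Of 6 other NF-Y subunit homologues, 5 were tested and 2 rose from 6 to 8 DAP, the NF-YA1 homologue Migut.D00604 (log2 change 1.14 ± 0.29, adjusted p = 0.00696) and the NF-YB3 homologue Migut.H01757 (0.90 ± 0.21, adjusted p = 0.0037, edgeR quasi-likelihood test). None rose from 4 to 6 DAP, when 5.22% of all genes did. Without 8 DAP replicate 2 only Migut.H01757 rose. Of 7 abscisic acid genes 1 rose and 2 fell from 6 to 8 DAP, with a median log2 change of -0.36. The NCED6 homologue Migut.G00626, an enzyme of abscisic acid synthesis, fell from 5.16 ± 2.28 to 0.516 ± 0.604 normalized CPM (adjusted p = 0.00415), and the HAB2 homologue Migut.A00652, a phosphatase that damps abscisic acid signalling, rose from 0.255 ± 0.196 to 3.5 ± 1.26 (adjusted p = 0.000951, edgeR quasi-likelihood test). The HAB1 homologue Migut.D00949 was the other gene that fell (-0.93 ± 0.22 on the log2 scale, adjusted p = 0.00374, edgeR quasi-likelihood test). The other homologues of the synthesis pathway, AAO3 (Migut.D00722) and ABA4 (Migut.L00317), had log2 differences of 0.86 ± 0.30 and 1.65 ± 0.45 that did not pass (adjusted p = 0.0375 and 0.0106, edgeR quasi-likelihood test), and AAO3 went from 22.5 ± 6.8 to 40.9 ± 7.33 normalized CPM. Of 5 gibberellin genes 1 rose, the GA2OX2 homologue Migut.H01362, an enzyme that inactivates gibberellin, from 1.72 ± 1.52 to 17.6 ± 8.53 (adjusted p = 0.00163, edgeR quasi-likelihood test).

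Over the 20 libraries, which share ages and library totals, the log2 level of ABI3 followed that of Migut.M01443 (Pearson r = 0.963) more closely than that of FUS3 (0.841) or Migut.M01289 (0.487), and FUS3 followed Migut.M01443 with r = 0.835. Migut.M01289 had r = 0.618 with Migut.M01443 and 0.461 with FUS3. Other genes were closer still: 78 were closer to ABI3 than Migut.M01443 was, 774 closer than FUS3 and 3722 closer than Migut.M01289 (20242 genes were tested). Another 237 were closer to FUS3 than Migut.M01443 was. The genes most like ABI3 were Migut.H00072 (r = 0.996), Migut.H00044 (0.995) and Migut.G00619 (0.994). Those most like Migut.M01443 were Migut.I00581 (0.980), Migut.L01725 (0.979) and Migut.J00889 (0.977).

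Likeness was lower for the other pair. The genes most like FUS3 were Migut.F00743 (r = 0.929), Migut.F00626 (0.925) and Migut.N02001 (0.920), and those most like Migut.M01289 were Migut.B00981 (0.945), Migut.F01744 (0.935) and Migut.M01408 (0.933). Migut.F01744, annotated as a homologue of the plant self-incompatibility protein S1 family, had means of 0.275, 24.9, 10.4, 160 and 47.0 normalized CPM at 0 to 8 DAP. Like Migut.M01289 it was higher at 2 DAP than in ovules and highest at 6 DAP, which follows from its choice by correlation. Migut.H00072, annotated as a homologue of GDSL-like lipases, had no count at 4 DAP and means of 49.9 ± 20.5 at 6 DAP and 1389 ± 538 at 8 DAP.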

How the data were processed

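The 20 strand-specific libraries hold RNA of ovules and whole seeds. The authors mapped the reads to a pseudo-genome of each parent (STAR), filtered for proper pairs with a single position, and ran featureCounts; versions are not given in the sources used here. The deposited counts are raw, 1 whole number per gene and library. Ages and replicate numbers came from the sample titles.

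Here, edgeR 4.0.16 in R 4.3.3 tested genes that exceeded 1 CPM in 3 or more libraries, after TMM scaling, by a model of 1 coefficient per age and robust quasi-likelihood F tests, adjusted by Benjamini and Hochberg over 20242 genes (threshold 0.01). Normalized CPM was computed from the deposited counts. Ratios within libraries, with a pseudocount of 0.5, had exact permutation tests. No 2 libraries of an age were alike within counting noise. The fit was tested on simulated data. The alternatives were other scalings, filters, tools and covariates (DESeq2 1.42.0 among them), and each library left out in turn. The list counts without 8 DAP replicate 2, the alternatives for the longer spans of FUS3 and the block by library name were added after seeing the data. The maternal plants of the 2 DAP libraries differ between the study's methods and the library names, and each was tried as a block.

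The 4 genes and the gene lists were chosen with earlier results of these data known. Genes named beside the 4 are every further maturation regulator, for each other list genes with the highest level at 8 DAP or the largest or smallest change from 6 to 8 DAP, and the 3 genes with the highest Pearson correlation with each regulator. The NF-YB3, HAB1 and ABA4 homologues, Migut.A01025 and the means of 2 of those correlated genes were picked after their values were seen. No sequence or position is given, as no genome was used.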

Additional observations from a re-analysis of the deposited data

Results flagged for a closer look

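Of 14 sets of libraries of 1 gene and age, 2 held a library that stood apart by Dixon's test for an extreme value, which flags about 1 set in 20 by chance. FUS3 (Migut.F00019) was at 2.43 normalized CPM in 2 DAP replicate 3, against 0 to 0.287 in the other 3 libraries of that age. ABI3 (Migut.D00511) was at 5.9 normalized CPM in 6 DAP replicate 3, against 3.04 to 3.28 in the others.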

How the results depend on the processing

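The joint test called ABI3 and both L1L homologues under every alternative run, and FUS3 under all but the filter of CPM over 5, which left FUS3 out. Every rise called for ABI3 and both L1L homologues stayed called. The difference of Migut.M01289 from 6 to 8 DAP also passed on total counts (-1.72), with the edgeR likelihood ratio test (-1.36), with DESeq2 (-1.34), with the library series as a covariate (-1.36), with the block by library name (-1.35) and with the libraries of these 2 ages only (-1.35), and that from 2 to 4 DAP passed with the likelihood ratio test (-1.79) and DESeq2 (-1.79) but shrank to -0.89 with the library series. FUS3 from 2 to 4 DAP, uncalled throughout (-0.22), turned to 0.36 on total counts, 0.40 with the replicate block, 3.38 with the block by library name and 3.18 with the library series. Leaving out single libraries gave -1.24 to 1.86 for FUS3 from 0 to 2 DAP and -0.69 to 2.08 from 2 to 4 DAP, the sign turning without 2 DAP replicate 3 in both, and -2.09 to -1.35 and -1.47 to -1.25 for Migut.M01289 from 2 to 4 and 6 to 8 DAP.

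At 6 and 8 DAP a replicate number is 1 maternal plant in the study's methods, yet same-numbered libraries hardly deviated together (r from -0.043 to 0.066). The replicate block in the count model changed no call between neighbouring ages, except that of Migut.M01289 from 6 to 8 DAP by library name, and changed those of FUS3 from 2 to 8 and 4 to 8 DAP given above. Within pairs, the ratio differences were the same (3.13, -1.90, 4.16, -0.87 and -5.03), but 4 pairs cannot pass a sign-flip test (adjusted p = 0.15). With a pseudocount of 0.1, FUS3 over Migut.M01443 gave -1.75. Without single libraries the 5 ratios ranged from 2.55 to 3.88 (FUS3 over Migut.M01289), -2.27 to -1.51 (FUS3 over Migut.M01443), 3.89 to 4.48 (ABI3 over Migut.M01289), -1.02 to -0.71 (ABI3 over Migut.M01443) and -5.46 to -4.72. FUS3 at 6 DAP ranged from 13.8% to 26.5% of its 8 DAP mean, the highest without 8 DAP replicate 4, and Migut.M01289 was at 330.0% on total counts. At a minimum of 0.5 normalized CPM the onset moved to 6 DAP for FUS3, 0 DAP for Migut.M01289 and 2 DAP for Migut.M01443, and at a minimum of 2 FUS3 had none.

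Over all genes, 40 were called from 2 to 4 DAP, against 0 to 1249 without single libraries, 588 with the likelihood ratio test, 818 with DESeq2, 372 with the maternal plant of the study's methods as block and 0 with the number in the library names, which differs at 2 DAP, 3 on total counts, 1 with the library series and 0 with those ages only. From 4 to 6 DAP 1487 became 2294, 2264 and 4695 with the likelihood ratio test, DESeq2 and those ages only, and 718 to 1766 without single libraries. From 6 to 8 DAP 2892 became 4414, 5168, 5445 and 7522 with DESeq2, the block by library name, the library series and those ages only, and 1765 to 3848 without single libraries, and from 0 to 2 DAP 3700 became 1351 with those ages only. The cause of these changes was not tested.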
